A study of Drosophila melanogaster with 6 samples.

Results

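The steroid hormone 20-hydroxyecdysone times moulting and metamorphosis in insects, and the genes examined here encode its receptor and the transcription factors that carry its signal onward. The set holds 10 of the 17807 genes in the tables, chosen by name through their FlyBase gene IDs: EcR, usp, br, Eip74EF, Eip75B, Eip78C, Hr3, Hr4, ftz-f1 and Eip93F. They were measured by RNA-seq of polyadenylated RNA from whole lymph glands of wild-type Drosophila melanogaster. The glands were taken from larvae of the third instar, the stage that ends at puparium formation. The lymph gland is the blood-forming organ of the larva, and its lobes disperse at the onset of metamorphosis.

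All 6 libraries were biological replicates of the same kind. The larvae came from a cross of the stock BL-30140 to the strain w1118 and were raised at 25 °C. That stock is known to carry a GAL4 driver with the blood-cell promoter of Hemolectin and a GFP reporter, so both sets share these transgenes as far as the labels say. The labels name 2 experimenters, and the libraries of one are called set B and those of the other set A, with 3 libraries each, numbered as in the labels. The labels give the stage only as the third instar, with no hours or other age within it, and whole glands pool all cell types, so fewer cells of a type and less RNA per cell cannot be told apart. Total expected counts ranged from 18689689 to 26003822 per library. Levels are given as TPM, a share of all transcripts scaled to one fixed sum, which are corrected for transcript length and can be compared between genes. A gene was called detected at a TPM of at least 1 in all 6 libraries, which 41.4% of all genes in the tables reached. Blood-cell markers were read beside the tissue label, and all 15 prohemocyte, plasmatocyte, crystal cell and shared hemocyte markers examined were detected. All 7 ring gland and all 5 muscle markers examined were detected too. Detection thus shows that blood cells were present, and cannot tell whether other tissue was attached to the glands.

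Ecdysone enters cells, is converted to 20-hydroxyecdysone and binds a heterodimer of 2 nuclear receptors, EcR and Usp (ultraspiracle). The bound receptor switches on early genes directly, among them br, Eip74EF and Eip75B. Early-late genes such as Eip78C, Hr3 and Hr4 need early gene products as well, ftz-f1 acts after the late larval pulse has declined, and Eip93F acts in prepupal and pupal tissues. Hr3 activates ftz-f1, and the Eip75B protein can bind Hr3 and block that activation.

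On the BDGP6.54 assembly, with positions counted from 1, br lies on chromosome X at 1575132 to 1664869, Hr4 on X at 1941940 to 2007956 and usp on X at 2038798 to 2042311. Chromosome arm 3L holds Eip74EF at 17558672 to 17619325, Eip75B at 17950953 to 18064696, ftz-f1 at 18750607 to 18801309 and Eip78C at 21226609 to 21266503. EcR lies on 2R at 6087873 to 6169087, Hr3 on 2R at 10203995 to 10237348 and Eip93F on 3R at 21949114 to 22014539. All are protein-coding. Every transcript that the tables list for them was found in the annotation, from 2 transcripts for usp to 14 for br.

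Of the 10 genes, 6 were detected and 4 were not. The receptor pair, the early genes and ftz-f1 were at a TPM of at least 1 in every library, while Eip78C, Eip93F, Hr3 and Hr4 reached it in 4, 3, 1 and 1 libraries. Mean TPM spanned from 134 for br to 0.428 for Hr4. Without set A replicate 1, the mean was 1.66 TPM for Eip78C, 0.868 for Eip93F, 0.322 for Hr3 and 0.17 for Hr4, in the same order.

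**Figure D1:**
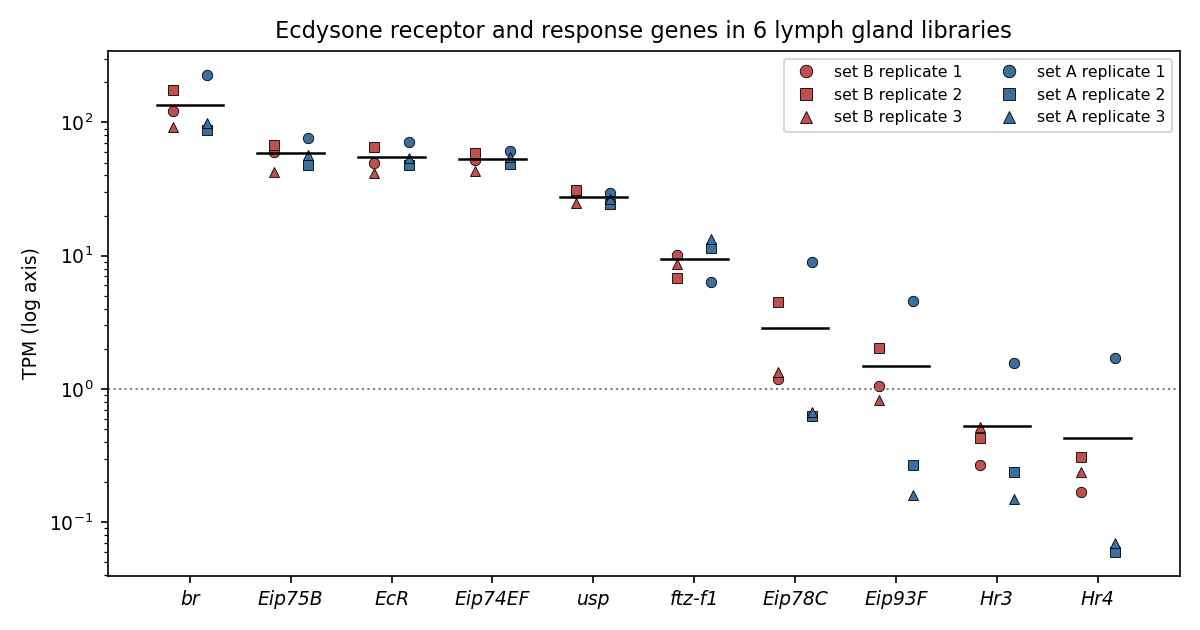
TPM of the 10 genes in each library on a log axis, with set B left of set A for each gene, a bar at the mean of the 6 libraries and a dotted line at a TPM of 1. Levels run from br at a mean of 134 TPM to Hr4 at 0.428 TPM. Set A replicate 1 is the highest library for 8 of the 10 genes, against 25.1% of the 8491 genes tested between sets.

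The receptor genes come first in the pathway. EcR (FBgn0000546), which binds the hormone, had 50.0, 66.0 and 41.4 TPM in replicates 1, 2 and 3 of set B, against 71.7, 48.3 and 53.9 TPM in those of set A. Its mean was 55.2 ± 11.4 TPM (SD, n = 6, as for all means below unless stated). The highest libraries were set A replicate 1 and set B replicate 2, and the sets overlapped. The gene for its partner Usp (FBgn0003964), the fly member of the RXR family, had 29.6, 31.2 and 25.0 TPM in set B, against 29.4, 24.3 and 26.5 TPM in set A. This was the steadiest of the 10 genes, at 27.7 ± 2.80 TPM, with a coefficient of variation (SD as a share of the mean) of 10.1%. The median coefficient of variation of the 7371 detected genes was also 10.1%, and 49.6% of them varied more than usp. Of its exonic bases, 8.72% overlap Actn on the same strand and 6.45% overlap CG4313 on the opposite strand, so part of the count may be theirs. The posterior SD that RSEM gave for the usp count was at most 0.0881% of the count. On the TPM scale, EcR was higher than usp in all 6 libraries.

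Among the early genes, br (FBgn0283451) stood highest. It is the Broad-Complex, a family of BTB zinc-finger transcription factors that specify pupal development. Its TPM was 123, 174 and 92.4 in set B, against 229, 88.1 and 99.9 in set A. The mean was 134 ± 56.0 TPM, and the gene ranked 783 among all genes by mean TPM. Its coefficient of variation was 41.7%, and 5.56% of detected genes varied more. A TPM of 229 in set A replicate 1 was 2.43 times the mean of the other set A libraries, and 174 TPM in set B replicate 2 was 1.62 times the mean of the other set B libraries. Counts behind these levels were ample, from 14568 to 43000 per library. A gene on the opposite strand, Mur2B, overlaps 0.936% of the exonic bases of br.

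The other early genes were less abundant than br and close to each other. Eip75B (FBgn0000568), a nuclear receptor that binds heme, had 59.8, 68.2 and 42.3 TPM in set B, against 76.7, 47.9 and 57.3 TPM in set A, with a mean of 58.7 ± 12.7 TPM. Eip74EF (FBgn0000567), an ETS-domain transcription factor, had 52.1, 59.0 and 43.0 TPM in set B, against 61.5, 48.9 and 55.1 TPM in set A, with a mean of 53.3 ± 6.79 TPM. Both genes were highest in set A replicate 1, second in set B replicate 2 and lowest in set B replicate 3. Their ranges were narrower than that of br, with the highest library 1.81 times the lowest for Eip75B and 1.43 times the lowest for Eip74EF. The coefficient of variation was 21.6% for Eip75B and 12.8% for Eip74EF, and 18.0% and 36.9% of detected genes varied more.

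The early-late genes were far lower and far more variable. Eip78C (FBgn0004865), a nuclear receptor related to Eip75B, had 1.19, 4.49 and 1.34 TPM in set B, against 9.0, 0.63 and 0.67 TPM in set A. The highest library was 14.3 times the lowest. These values rested on 75, 269 and 108 counts in set B, against 752, 47 and 42 counts in set A. The exact 95% Poisson interval of the count was 699 to 808 in set A replicate 1 and 30.3 to 56.8 in set A replicate 3, and such intervals cover counting error only. The mean was 2.89 ± 3.32 TPM, with an SD above the mean.

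Hr4 (FBgn0264562), an orphan nuclear receptor, also had a wide range. It had 0.17, 0.31 and 0.24 TPM in set B, against 1.72, 0.06 and 0.07 TPM in set A, and the highest library was 28.7 times the lowest. Its counts were 28, 42 and 47 in set B, against 354, 14 and 15 in set A. The Poisson interval of 318 to 393 counts in set A replicate 1 lay far above that of 34.5 to 62.5 counts in set B replicate 3, the next highest by count. Only 0.331% of its exonic bases overlap another gene, PIG-K on the opposite strand.

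Hr3 (FBgn0000448), the orphan nuclear receptor also called DHR3, had 0.27, 0.43 and 0.52 TPM in set B, against 1.57, 0.24 and 0.15 TPM in set A. It was the member whose counts were least certain. CG12912 and CG46321, on the same strand, share 61.8% and 58.0% of its exonic bases, and the posterior SD of its count reached 29.0% of the count. Summed over Hr3 and the same-strand genes that overlap it, the locus held 40, 45 and 86 counts in set B, against 281, 38 and 23 counts in set A. The library order of the summed counts was the same as that of the TPM, with set A replicate 1 highest and set B replicate 3 second.

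The later factors differed from each other. Eip93F (FBgn0264490), a transcription factor tied to the death of larval tissues and to adult specification, had 1.05, 2.03 and 0.83 TPM in set B, against 4.56, 0.27 and 0.16 TPM in set A. Its counts were 203, 393 and 194 in set B, against 1057, 60 and 32 in set A, a range in TPM of 28.5 times. Like Eip78C, it was highest in set A replicate 1 and second in set B replicate 2.

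By contrast, ftz-f1 (FBgn0001078), a nuclear receptor that gives prepupal tissues the competence to respond to the next hormone pulse, was lowest in those libraries. Its TPM was 10.1, 6.85 and 8.60 in set B, against 6.38, 11.4 and 13.4 in set A, with a mean of 9.45 ± 2.7. Set A replicate 1 lay at 0.516 times the mean of the other set A libraries and set B replicate 2 at 0.733 times the mean of the other set B libraries. The non-coding gene lncRNA:CR45939 overlaps 29.4% of the exonic bases of ftz-f1 on the same strand, and the posterior SD of the ftz-f1 count reached 4.32% of the count. The partner had 4.59, 2.19 and 5.65 TPM in set B, against 1.28, 2.76 and 2.76 TPM in set A, and was also lowest in set A replicate 1 and second lowest in set B replicate 2.

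Neighbours in the order of mean TPM were compared within libraries. The order was br, Eip75B, EcR, Eip74EF, usp, ftz-f1, Eip78C, Eip93F, Hr3 and Hr4, and it is taken from the same libraries as the tests. With a two-sided exact sign-flip permutation test of the log2 ratio of TPM plus 0.1, 0 of 9 pairs had an adjusted p under 0.05 after Benjamini-Hochberg adjustment. For 5 pairs the exact permutation p was 0.03125 before adjustment, and 6 libraries cannot give a smaller one. The adjusted p of these pairs was 0.05625. In these pairs, br over Eip75B, Eip74EF over usp, usp over ftz-f1, Eip78C over Eip93F and Eip93F over Hr3, the first gene was higher in 6 of 6 libraries. An unpaired exact permutation test called 4 pairs, br over Eip75B, Eip74EF over usp, usp over ftz-f1 and ftz-f1 over Eip78C. That test ignores that both genes of a pair were measured in the same libraries. For ftz-f1 over Eip78C, the first gene was higher in 5 of 6 libraries. The pair was reversed in set A replicate 1, with 6.38 TPM for ftz-f1 and 9.0 TPM for Eip78C. The mean log2 ratio was 1.13 for br over Eip75B, 0.94 for Eip74EF over usp and 1.58 for usp over ftz-f1. Eip75B, EcR and Eip74EF were not separated by either test. EcR exceeded Eip74EF in only 2 of 6 libraries, with a mean log2 ratio of 0.04 ± 0.12 (SD) that was -0.04 ± 0.02 without set A replicate 1 and set B replicate 2. Their order at this depth was within the spread between libraries.

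Levels varied between libraries to different degrees. For 6 of the 10, br, ftz-f1, Eip78C, Eip93F, Hr3 and Hr4, the highest library was at least 2 times the lowest, against 23.2% of the tested genes with a value above 0 in every library. The coefficient of variation of the 6 detected members ran from 10.1% for usp to 41.7% for br, against a median of 10.1% for detected genes. That of usp lay at this median, and 49.6% of detected genes varied more. The other detected members lay above it. Without set B replicate 2, the coefficient of variation of usp was 9.13%. For the 4 members that were not detected it lay between 99.4% for Hr3 and 149% for Hr4. Leaving out set A replicate 1 lowered it to 46.6% for Hr3 and 63.5% for Hr4. Without set A replicate 1 and set B replicate 2 together, a choice made after the values were seen, it was 15.3% for br, 10.8% for EcR, 37.7% for Eip78C, 53.7% for Hr3, 63.6% for Hr4 and 74.5% for Eip93F. Leaving out the 2 highest libraries of a gene tends to lower it, so these values are a description. For Hr3 and Hr4 it was not lower than without set A replicate 1 alone. Without set B replicate 2 alone, it was 46.5% for br, higher than with all libraries.

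The libraries fell in a shared order. Of the 10 genes, 7 were highest in set A replicate 1 and second in set B replicate 2: br, EcR, Eip74EF, Eip75B, Eip78C, Eip93F and Hr4. Of the 8491 genes tested between sets, 15.9% had that order. The reverse order, lowest in set A replicate 1 and second lowest in set B replicate 2, was that of ftz-f1, and 11.7% of tested genes had it. These libraries were singled out after their values were seen, and the counts are a description. Hr3 was highest in set A replicate 1 and second in set B replicate 3, and usp was highest in set B replicate 2 and second in set B replicate 1. For 8 of the 10 genes, set A replicate 1 was the highest of set A and set B replicate 2 the highest of set B, against 30.3% of tested genes. These were usp and the 7 genes above, for which the first order fixes the second. The second count is thus not separate evidence. With TMM-normalised CPM in place of TPM, 7 genes again had the first of these orders, against 15.6% of tested genes, and 8 had the second, against 29.3%.

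**Figure D2:**
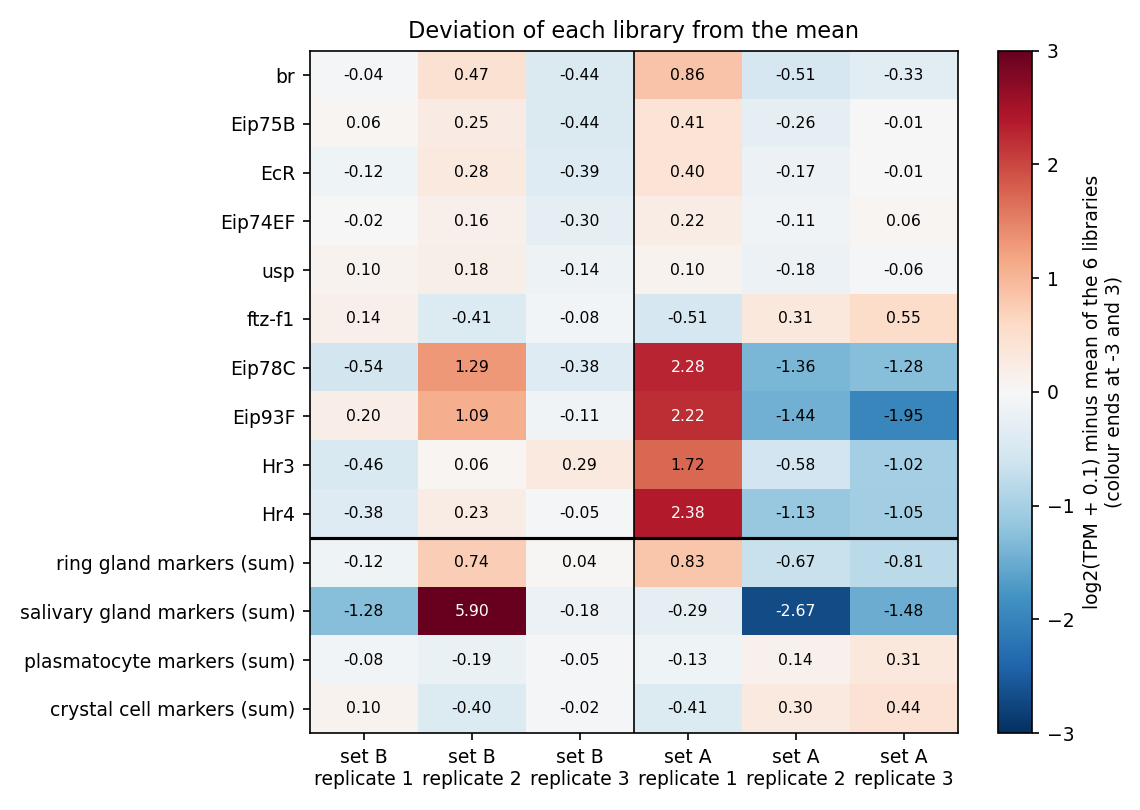
Deviation of log2(TPM + 0.1) in each library from the mean of the 6 libraries, for the 10 genes and, below the line, for the summed TPM of 4 marker lists, with set B left of set A. In set A replicate 1, Hr4 is at 2.38, Eip78C at 2.28 and Eip93F at 2.22, while ftz-f1 is at -0.51 and the ring gland markers at 0.83.

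Markers of other tissues were measured beside these values. The 7 ring gland markers, genes of the prothoracic gland cells that make ecdysone, were all detected. Their summed TPM was 1584, 2872 and 1775 in set B, against 3057, 1081 and 987 in set A. They were thus highest in set A replicate 1 and set B replicate 2, the libraries in which most of the response genes were high, and 6 of the 7 had the same order as those genes, against 15.9% of all tested genes. The exception was spok, with 990 TPM in set B replicate 2 and 967 TPM in set A replicate 1. The part of ring gland cells in the levels of the response genes was not tested.

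Crystal cell markers ran the other way. The summed TPM of PPO1, PPO2 and lz was 13615, 9632 and 12508 in set B, against 9603, 15613 and 17240 in set A. The 5 plasmatocyte markers summed to 3788, 3509 and 3864 TPM in set B, against 3663, 4400 and 4957 TPM in set A, and their sum was lowest in set B replicate 2 and second lowest in set A replicate 1. The sum rests mostly on Hml, Pxn and Col4a1. Of the others, eater had the library order of br, with 580 TPM in set B replicate 2 and 738 TPM in set A replicate 1, and NimC1 was highest in set A replicate 1, at 161 TPM. Whether the mix of blood cells contributes to the levels of the response genes was not tested.

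Salivary gland markers separated the libraries differently. Of 8 markers, 2 were detected, Sgs7 and Sgs8. The summed TPM of all 8 was 37.0, 5355 and 79.4 in set B, against 73.5, 14.0 and 32.2 in set A, so that set B replicate 2 stood apart from all others and set A replicate 1 did not. The marker ng2 was listed at 0 in every library. Summed fat body markers were highest in set A replicate 3, muscle markers in set B replicate 3, neural markers in set B replicate 1 and heart markers in set B replicate 2. None of these 5 lists was highest in set A replicate 1.

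The genes whose pattern over the 6 libraries was most like that of br were found by the mean absolute difference between deviations of log2(TPM + 0.1) from each gene's own mean. Of 7370 other detected genes, the nearest was Papss, which encodes the synthase of the sulfate donor PAPS, with a difference of 0.0355. Its TPM was 56.6, 85.0 and 45.4 in set B, against 109, 43.2 and 50.8 in set A. Next were loco, a regulator of G protein signalling, at 0.0391, and CG10011 at 0.0531. The median over all genes compared was 0.449. Among the response genes themselves, Eip75B was nearest to br at 0.223, in place 266, followed by EcR at 0.242 and Eip74EF at 0.317. At 0.749, ftz-f1 was far from br, in place 7051.

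Set B was compared with set A across all genes with the quasi-likelihood test of edgeR to ask whether the experimenters' libraries differed in the response genes. All 10 genes were tested, and 0 of 10 had an adjusted p under 0.05, as did 0.0% of all 8491 genes tested. At an unadjusted p under 0.05 there were also 0 of 10, against 4.16% of all genes tested, and DESeq2 on the same genes called 0 of the 7 members to which it gave an adjusted p, against 0.261% of genes. It gave none to Eip78C, Hr4 and Eip93F. The log2 change, set B minus set A, was -0.12 for br (SE 0.39), with a 95% interval of -1.08 to 0.84. For EcR it was -0.15 (SE 0.20), with an interval of -0.63 to 0.32, and for usp it was 0.07 (SE 0.095), with an interval of -0.16 to 0.31.

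For the low genes the intervals were wide. The change was -0.57 for Eip78C (interval -3.37 to 2.24), -0.21 for Eip93F (interval -3.11 to 2.68), -0.70 for Hr3 (interval -2.91 to 1.5) and -1.43 for Hr4 (interval -4.35 to 1.49). The median log2 change of the 10 genes was -0.18 and that of all tested genes was -0.0045. TPM ranges of the sets overlapped for all 10 genes. Among all tested genes, 4.53% lay without overlap higher in set B and 1.58% lower in set B.

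The direction of several of these changes rested on single libraries. Without set A replicate 1, which leaves 3 libraries against 2, the log2 change was 2.56 for Eip93F (SE 0.54), 1.8 for Eip78C (SE 0.69), 1.39 for Hr4 (SE 0.40) and 1.06 for Hr3 (SE 0.44), each now positive. For ftz-f1 it was -0.56 (SE 0.17), against -0.30 with all libraries. The edgeR adjusted p was 0.607 for each of these 5 genes, so no call was made. Before adjustment, Eip93F, Eip78C, Hr4 and ftz-f1 had a p under 0.05, which is 4 of the 10 members, against 7.73% of all genes in that fit. The sets then did not overlap in TPM for 4 genes higher in set B and 1 lower in set B, against 17.4% and 7.36% of genes. Set A replicate 1 was the highest library for 8 of the 10 members, against 25.1% of the genes tested with all libraries. It was the lowest for ftz-f1. Leaving it out moves their changes in these directions by construction, so these counts are a description. Without set A replicate 1, the changes of br, Eip75B and EcR were also positive, at 0.40, 0.085 and 0.0029. With all libraries they were -0.12, -0.10 and -0.15. Without set B replicate 3, the log2 change was 0.043 for br, 0.04 for Eip75B and 0.043 for Eip93F, also positive. The sign for Eip74EF, usp and ftz-f1 was the same without each library in turn. Mean TPM of Eip93F was 1.30 in set B, against 0.215 in set A replicates 2 and 3.

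**Figure D3:**
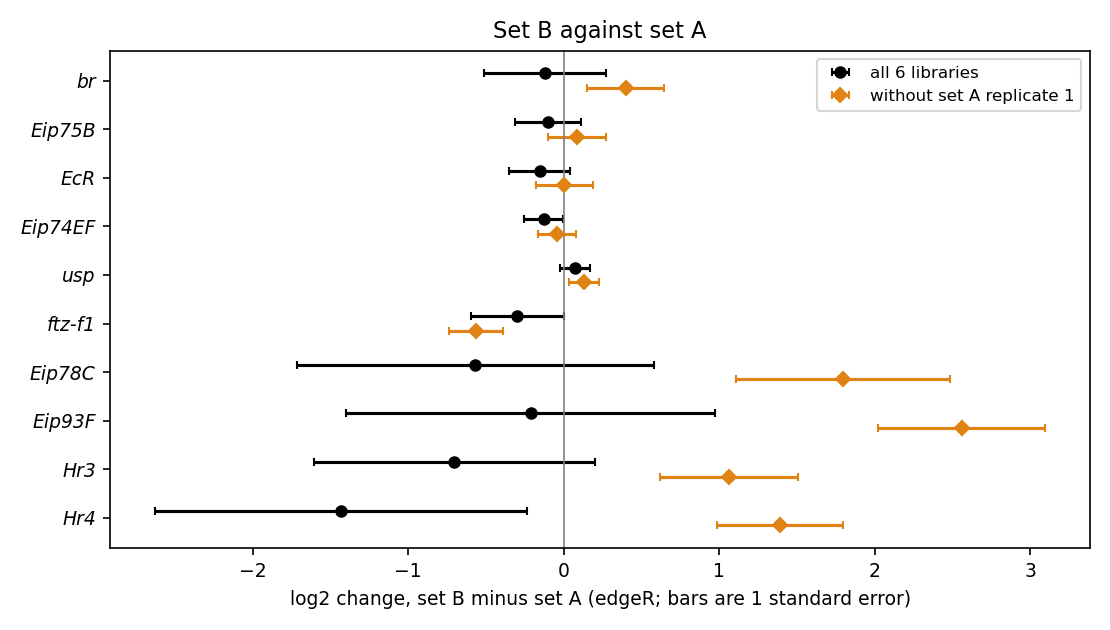
Log2 change of the 10 genes, set B minus set A, from edgeR with all 6 libraries (circles) and without set A replicate 1 (diamonds), with bars of 1 standard error. For Eip78C, Eip93F, Hr3 and Hr4 the estimate is negative with all libraries and positive without set A replicate 1. The 5 most abundant genes lie between -0.15 and 0.40, and of these br, Eip75B and EcR also turn from negative to positive.

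The transcript mix gave a readout beyond the level. The length that RSEM lists for a gene is the mean over its transcripts weighted by their estimated shares, so it moves when the mix moves. For Eip78C this mean was 3832 nt in every library, which equals the length of the transcript Eip78C-RB. Of its 4 annotated transcripts, from 3541 to 5223 nt, the reads were thus assigned to that one in libraries with high and low levels.

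Eip74EF has 1 transcript of 5059 nt, Eip74EF-RB, and 4 longer ones, of which 3 are 6012 nt long and share a start at 17619325 and 1 is 6239 nt long and starts at 17576320. Its mean length was 5159, 5105 and 5172 nt in set B, against 5248, 5101 and 5082 nt in set A. The shorter transcript therefore dominated throughout. In set A replicate 1, under that assumption, these means put the share of the longer transcripts at 16% to 19.8%, depending on which of them was present. The share was 9.59% to 11.9% in set B replicate 3, 8.48% to 10.5% in set B replicate 1, and at most 4.87% in set B replicate 2, 4.41% in set A replicate 2 and 2.36% in set A replicate 3. The gene's total level in set A replicate 1, 61.5 TPM, was the highest of the 6, while set B replicate 2, second in total level, was not high in longer transcripts.

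Eip93F has a transcript of 4438 nt and 2 of 12020 nt. The share of the shorter one was 8.64%, 0% and 16.3% in set B, against 22.4%, 13.4% and 0% in set A. These shares rest on 203, 393 and 194 counts of the gene in set B, against 1057, 60 and 32 in set A. At a given share, the shorter transcript yields fewer reads than the longer ones, so fewer counts still lie behind its share. The error of the shares was not estimated. The longer transcripts prevailed in every library.

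For usp, the longer of its 2 transcripts made up between 0.535% and 1.78% of the gene's transcripts. The mean length of br lay between 8408 and 8632 nt. Given the lengths of its transcripts, the 3 longest, of 7839, 8223 and 9822 nt, made up at least 73.2% of br transcripts in every library. Between sets, the mean length of the 6 detected genes was compared with a two-sided exact permutation test, in which 3 libraries against 3 cannot go below p = 0.1. The smallest p was 0.1, for ftz-f1, with 5602 ± 19.0 nt in set B and 5557 ± 6.84 nt in set A (SD, n = 3 each), and the adjusted p was 0.6.

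**Figure D4:**
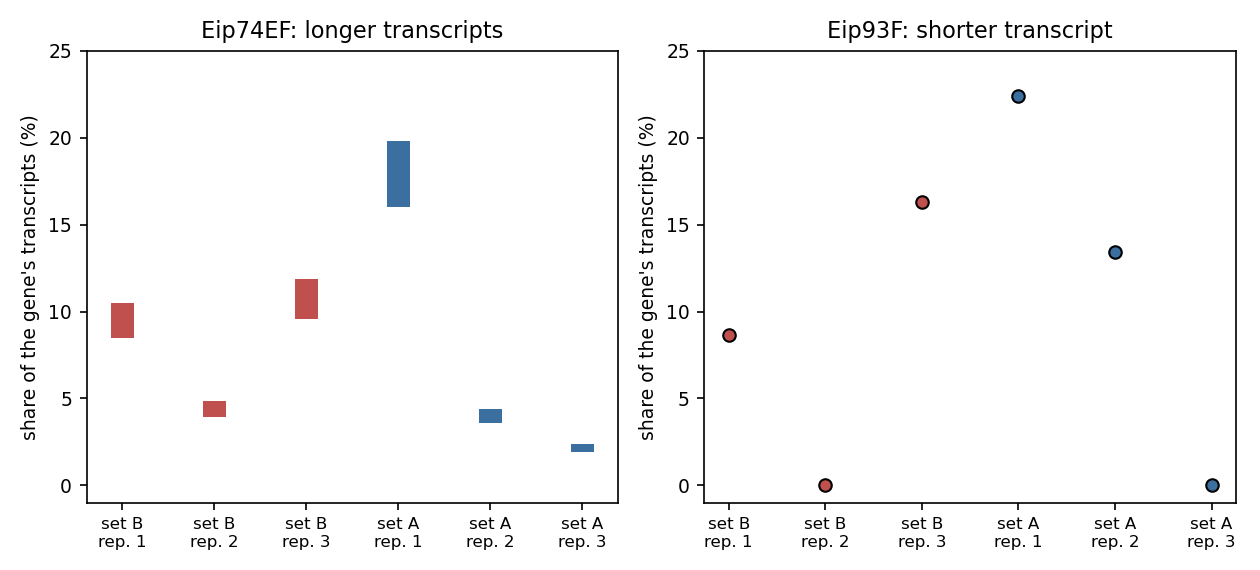
Share of the longer Eip74EF transcripts (left, bars span the lowest to the highest share that the mean length allows) and of the shorter Eip93F transcript (right, points) in each library, with set B left of set A. Both are highest in set A replicate 1, at 16% to 19.8% and at 22.4%. The error of the shares was not estimated.

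Other genes of the hormone's path were taken from lists. In the list of hormone uptake and turnover, 2 of 6 genes were detected. EcI, now named Oatp74D, the importer through which ecdysone enters cells, was the highest, at 162, 205 and 158 TPM in set B, against 211, 132 and 151 TPM in set A. E23, an ABC transporter gene induced by ecdysone, had 3.68, 10.02 and 2.76 TPM in set B, against 16.3, 1.82 and 2.58 TPM in set A. These 2 of the 6 had the library order of br, against 15.9% of all tested genes. The gene shd, for the enzyme that converts ecdysone to 20-hydroxyecdysone, was at 0.733 ± 0.242 TPM and was not detected. Between sets, 0 of the 6 genes had an edgeR adjusted or unadjusted p under 0.05, against 0.0% and 4.16% of all tested genes.

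Partners and coregulators of the receptor were all detected, 10 of 10, with a median coefficient of variation of 6.96%. Mi-2, a chromatin remodelling ATPase, was at 59.0 ± 3.04 TPM, and the corepressor Sin3A was at 37.8 ± 2.51 TPM. The library order of br was that of 0 of the 10, against 15.9% of all tested genes, and the reverse order was that of 3, Hsp83, rig and E(bx), against 11.7%. The chaperone gene Hsp83 varied most in the list, with a coefficient of variation of 38.8%, and rig followed at 16.8%. Hsp83 had 1116, 966 and 1414 TPM in set B, against 295, 1209 and 1390 TPM in set A. Set A replicate 1 was far below every other library. The part of this in the levels of the response genes was not tested. No gene of the list had an unadjusted edgeR p under 0.05 between sets, against 4.16% of all tested genes.

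Flies have further nuclear receptors, and 5 of 14 in the list were detected, Hr78, Hnf4, Hr96, ERR and Hr39. Hr78 was the highest, at 27.0 ± 3.03 TPM, close to usp. Hnf4, a regulator of lipid metabolism, was at 20.2 ± 2.06 TPM and Hr96, a xenobiotic-response receptor, at 17.5 ± 1.35 TPM. These lay above ftz-f1 in mean TPM and below EcR and Eip75B. The library order of br was that of 2 of the 8 tested, Hnf4 and kni, against 15.9% of all tested genes. The only gene listed at 0 in every library was Hr83. Of the list, 8 genes were tested between sets and 0 had an adjusted p under 0.05 by edgeR, against 0.0% of all tested genes. At an unadjusted p under 0.05 there was 1, against 4.16% of all tested genes. It was svp, at 1.72, 1.11 and 0.38 TPM in set B, against 0.49, 0.22 and 0.24 TPM in set A.

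**Figure D5:**
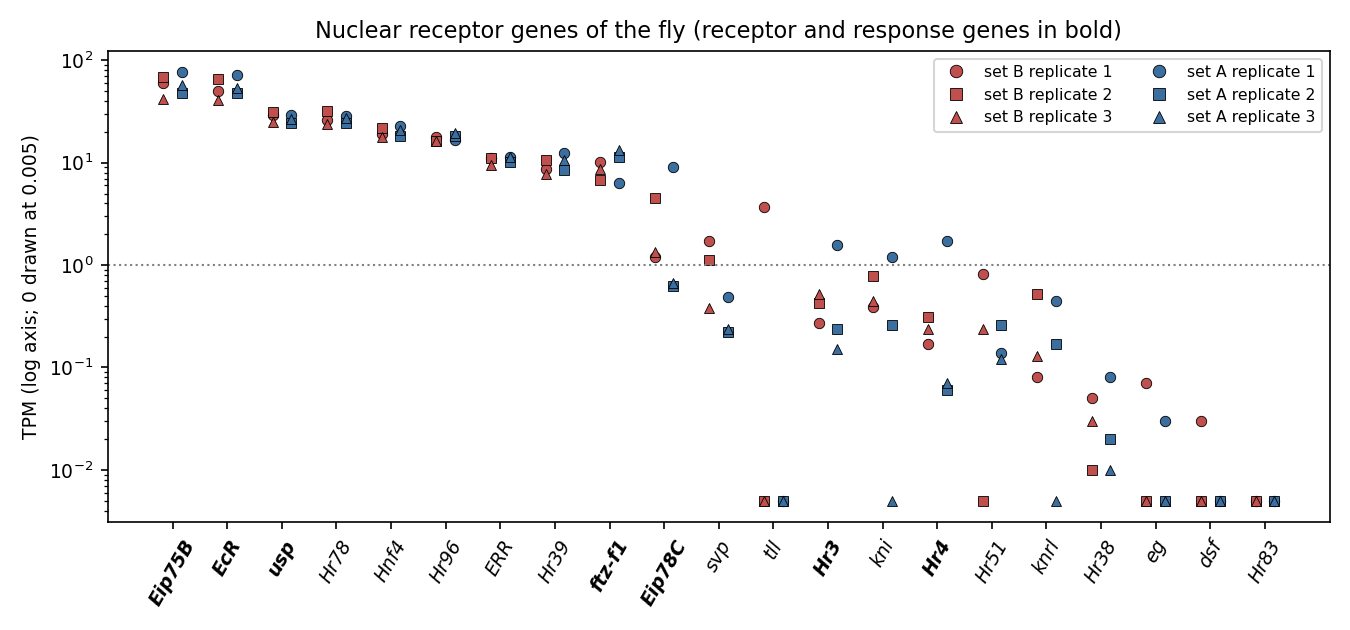
TPM of 21 nuclear receptor genes in each library on a log axis, with set B left of set A for each gene, members of the receptor and response genes in bold, zeros drawn at 0.005 and a dotted line at a TPM of 1. Eip75B and EcR are the highest, with means of 58.7 and 55.2 TPM, and Hr3 and Hr4 lie below a TPM of 1 except in set A replicate 1.

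Of 20 other genes known for ecdysone response, 10 were detected. The highest was Eip55E, now named Cth, which encodes cystathionine gamma-lyase, at 343, 468 and 370 TPM in set B, against 550, 350 and 406 TPM in set A. ImpL2, which encodes a secreted protein that binds insulin-like peptides, had 56.1, 145 and 72.0 TPM in set B, against 174, 44.1 and 18.2 TPM in set A. The zinc-finger gene crol was steady at 68.7 ± 4.95 TPM. Of the 13 genes tested between sets, 7 had the library order of br, against the 15.9% of all tested genes above: Eip55E, Eip71CD, ImpE3, ImpL2, Kr-h1, Sox14 and hid. Some of these were named after their values were seen. ImpE3 had 1.52, 6.22 and 1.43 TPM in set B, against 11.6, 0.48 and 0.70 TPM in set A. The cell death gene hid had 8.23, 12.8 and 5.97 TPM in set B, against 14.1, 5.4 and 6.83 TPM in set A. The gene chinmo, a BTB zinc-finger gene that marks juvenile stages, had the order of ftz-f1, at 41.9, 23.1 and 30.5 TPM in set B, against 19.8, 39.3 and 45.2 TPM in set A. No gene of the list had an edgeR adjusted or unadjusted p under 0.05 between sets, against 0.0% and 4.16% of all tested genes.

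Of 11 late ecdysone-induced genes at 71E, 10 were listed at 0 in all libraries. The exception was Eig71Ee, with 1.59, 441 and 1.25 TPM in set B, against 0.67, 0.41 and 0.98 TPM in set A. It stood apart in set B replicate 2, the library with the high salivary gland markers, and not in set A replicate 1. The part of salivary gland cells in that value was not tested.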

How the data were processed

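Gene-level RSEM tables were used as deposited. The submitters' processing notes name CASAVA 1.8.2, Trimmomatic 0.35, STAR 2.7.1a, RSEM 1.2.28 and the build BDGP6. The annotation and the use of strand in counting are not given in the sources used here, so overlapping genes are named. Among the values the authors deposited, the expected count of a gene is RSEM's estimate and need not be whole. The TPM and FPKM values deposited by the authors are scaled by effective transcript length. Symbols, positions and transcript lengths came from Ensembl release 115 (BDGP6.54), matched by FlyBase ID. Of 120 list entries, 5 were matched by a synonym and 1 by transcript ID.

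The members and lists were chosen with earlier results of these data known. Named genes are all members, the 3 highest by mean TPM in each pathway list, and the 3 nearest to the most variable detected member. Other genes (among them ImpE3, hid, chinmo, svp, rig, E(bx), kni, eater, NimC1 and overlapping genes) were named after their values were seen. For set B against set A, expected counts were rounded and fitted in R 4.3.3 with edgeR 4.0.16 (quasi-likelihood, TMM, default expression filter), with Benjamini-Hochberg adjustment over all genes and a threshold of 0.05, and with DESeq2 1.42.0 as an alternative. The test was tested on simulated data. The labels give no batch other than the experimenter, and any other difference between sets cannot be told apart from it. Exact tests used scipy 1.17.1.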

Additional observations from a re-analysis of the deposited data

Results flagged for a closer look

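Of 33 values examined (members, named genes and summed markers), 7 had a library whose gap to its nearest neighbour exceeded 0.625 of the whole range, Dixon's 95% critical value for 6 samples. Chance gives about 1 in 20, or 1.65 of 33, only where values follow a normal distribution. TPM was used here without a log transform, this condition was not tested, and the values are not independent. The count of 7 is therefore a description. Hr4 stood apart in set A replicate 1, at 1.72 TPM against 0.06 to 0.31 TPM elsewhere, with a gap of 0.849. Hr3 stood apart in the same library, at 1.57 TPM against 0.15 to 0.52 TPM, with a gap of 0.739. Eig71Ee reached 441 TPM in set B replicate 2, while no other library exceeded 1.59 TPM, a gap of 0.997. Salivary gland markers summed to 5355 TPM in the same library against at most 79.4 TPM, a gap of 0.988. Fat body markers summed to 679 TPM in set A replicate 3 against at most 22.0 TPM, a gap of 0.977. Muscle markers summed to 1259 TPM in set B replicate 3 against at most 543 TPM, a gap of 0.697. Neural markers summed to 24.8 TPM in set B replicate 1 against at most 4.62 TPM, a gap of 0.868. Eip93F, with a gap of 0.575, and Eip78C, with a gap of 0.539, did not pass.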

How the results depend on the processing

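The order of the 10 mean levels was the same in FPKM, in TMM-normalised CPM per kb and without any single library, with 10 of 10 genes in place. Without set A replicate 1 and set B replicate 2 together, 8 of 10 were in place. Mean TPM was then 48.4 for EcR and 49.8 for Eip74EF. At a minimum TPM of 5, 6 genes were detected, as at 1. The number of neighbouring pairs with an adjusted p under 0.05 was 0 with the sign-flip test. It was 4 with the unpaired test, which ignores that the genes of a pair share libraries. Without 1 library it was 0, which 5 libraries fix, since their smallest p is 0.0625. EcR over Eip74EF was reversed without set A replicate 1 and ranged from -0.00065 to 0.0554 without single libraries, and it was -0.0407 without set A replicate 1 and set B replicate 2 together.

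Genes called between sets were 0 in all edgeR fits, 22 with DESeq2 on the filtered genes and 34 with DESeq2 without the filter, and members called were 0 in all. Without single libraries the log2 change, set B minus set A, ranged from -0.38 to 0.40 for br, -0.24 to 0.085 for Eip75B, -0.34 to 0.0029 for EcR, -1.43 to 1.8 for Eip78C, -0.74 to 2.56 for Eip93F, -1.17 to 1.06 for Hr3 and -1.94 to 1.39 for Hr4. Without set A replicate 1 and set B replicate 2 together, an alternative chosen after seeing the data, it was 0.15 for br, 0.93 for Eip78C, 2.04 for Eip93F, 1.17 for Hr3 and 1.25 for Hr4. Deviations from the set means correlated across genes at -0.178, -0.302 and 0.375 for same-numbered libraries. For other pairs the values lay between -0.509 and 0.566. With 3 libraries per set, whose deviations sum to 0, these values cannot decide whether the replicate numbers pair the libraries. With the replicate number as a block, 0 genes were called, and the log2 change was 0.44 for Eip78C, 1.19 for Eip93F, 0.064 for Hr3 and 0.11 for Hr4, each with an edgeR adjusted p of 1. The cause of these reversals was not tested. The difference in mean transcript length ranged from -28.9 to 54.3 nt for Eip74EF and from -1.52 to 1.74 nt for usp without single libraries. Hr3 and Hr4 had as few as 15 and 14 counts in a library, where counting error is widest.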
